A study of Homo sapiens with 12 samples.

Results

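The genes described are 10 negative feedback regulators of the RAS and ERK pathway, the phosphatases DUSP4, DUSP5, DUSP6 and DUSP7, the Sprouty genes SPRY1, SPRY2 and SPRY4, and the Spred genes SPRED1, SPRED2 and SPRED3. They were taken by gene symbol from a table of 58174 genes, and all 10 were among the 20612 genes that passed a filter on low counts. The libraries were made from RNA of H520 (NCI-H520), an established human cancer line that the labels class as LUSC, lung squamous cell carcinoma. Cells treated with BLU9931 and palbociclib together, each at 1 µM (the combination), with palbociclib alone at 1 µM, with BLU9931 alone at 1 µM, and control cells gave 3 libraries each, 12 in all, after 72 h. BLU9931 blocks FGFR4, one of the FGF receptors, by binding it covalently, and palbociclib blocks CDK4 and CDK6, the kinases that let cells leave G1. What was given to control cells is not stated, and all groups are the same single line. Nothing says that replicates were grown separately, and the p-values therefore measure only the spread between these libraries, which may be technical. The design asks what each drug did to the feedback genes alone and what it did in the presence of the other.

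Signals from FGF receptors pass through the adaptor FRS2 and GRB2 with SOS to RAS, and on through RAF and MEK to the kinase ERK. ERK then drives transcription of several of its own inhibitors, so that mRNA levels of DUSP6 and SPRY4 are widely used as readouts of ERK output. The dual-specificity phosphatases remove phosphate from ERK, in the cytoplasm for DUSP6 and DUSP7 and in the nucleus for DUSP4 and DUSP5. Sprouty proteins act between the receptor and RAF, and Spred proteins bring the RAS GTPase-activating protein neurofibromin (NF1) to the membrane.

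Promoter sequence upstream of RefSeq transcript starts (build GRCh38.p14) was matched by symbol for 8 of the 10 genes, in 13 windows, while DUSP4 and DUSP5 were not analysed here. Each window of 250 bases was searched on both strands for GGAAGT (the core of ETS factor sites), TGACGTCA (CRE), TGANTCA (AP-1) and CCGCCC (GC box). The windows of DUSP7 and of 2 of the 3 SPRY2 starts are shown because DUSP7 and SPRY2 fell in combination-treated cells, as described further on, and because these windows hold a match and do not overlap annotated exons of the 10 genes. The window of the most downstream SPRY2 start (chr13:80339660-80339909) also lay outside these exons, held no match and is not shown. Capitals mark the matches, and each sequence is written 5′ to 3′ on the strand of its gene, with the last base just before the transcript start. The windows lie at chr3:52056572-52056821 (DUSP7, minus strand), chr13:80341127-80341376 (SPRY2 upstream start, minus strand) and chr13:80340109-80340358 (SPRY2 middle start, minus strand).
DUSP7: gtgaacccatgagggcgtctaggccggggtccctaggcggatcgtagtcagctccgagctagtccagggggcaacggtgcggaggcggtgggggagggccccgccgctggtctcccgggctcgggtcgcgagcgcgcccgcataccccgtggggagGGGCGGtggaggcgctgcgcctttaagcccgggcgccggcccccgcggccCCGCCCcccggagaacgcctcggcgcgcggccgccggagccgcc
SPRY2 upstream start: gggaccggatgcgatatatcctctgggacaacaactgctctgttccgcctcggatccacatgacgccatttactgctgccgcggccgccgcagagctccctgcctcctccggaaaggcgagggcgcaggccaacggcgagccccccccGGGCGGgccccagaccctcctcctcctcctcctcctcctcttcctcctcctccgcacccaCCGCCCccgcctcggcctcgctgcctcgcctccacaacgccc
SPRY2 middle start: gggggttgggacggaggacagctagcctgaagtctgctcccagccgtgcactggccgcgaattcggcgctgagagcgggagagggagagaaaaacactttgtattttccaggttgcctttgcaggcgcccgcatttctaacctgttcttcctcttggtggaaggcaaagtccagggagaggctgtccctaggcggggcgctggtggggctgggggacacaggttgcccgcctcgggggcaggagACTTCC
The DUSP7 window and the upstream SPRY2 window each held 2 GC boxes, and the middle SPRY2 window held an ETS core on the opposite strand that ends at its last base. A GC box was in 6 of the 13 windows and in 42.6% of the 35116 windows of the RefSeq table, and an ETS core was in 2 of the 13 (SPRY2 and SPRED3) and in 19.5% of all. An AP-1 match was in 1 of the 13 windows, that of SPRED3, and in 6.57% of all, and a CRE was in 0 of the 13 and in 1.65% of all. The windows of DUSP6 and SPRED2 held none of these letters. The DUSP6 window (chr12:89352502-89352751) lay wholly within annotated exons of the 10 genes. So did the SPRED1 window and 1 window each of SPRY1 and SPRED3. Exons covered 170 of the 250 bases of the SPRY4 window, 126 of another SPRED3 window and 38 of 1 SPRED2 window. The match counts over the 13 windows therefore include sequence within annotated exons. The GC content of the 13 windows was between 39.2% and 78.4%, against a median of 58.0% over the table. A match is a description of these letters and says nothing on whether a factor binds.

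Library totals were between 21730722 and 35786607 counts. Replicate 1 of control and replicate 3 of palbociclib stood apart from the other libraries of their groups: across 20531 genes, the deviation from the other libraries of the group had a Spearman rho with transcript GC content of -0.735 in palbociclib replicate 3 and -0.667 in control replicate 1, against -0.245 to 0.60 in the other 10 libraries. Member transcripts differ in GC content, between 38.9% for SPRED1 and 59.2% for DUSP7, so calls that changed without both of these libraries are given with and without them. Of the squamous markers only SOX2 was high in the 12 libraries, at 342 to 443 TPM (transcript abundance scaled by gene length to a fixed total per library), while TP63 did not pass 0.165 TPM and KRT5 did not pass 1.31 TPM. The summed level of 5 neuroendocrine markers was 33.2 to 41.3 TPM in the combination, 20.1 to 28.5 TPM with palbociclib, 25.1 to 28.5 TPM with BLU9931 and 16.9 to 20.8 TPM in control. INSM1 made up most of that sum, 3 of the 5 markers passed 1 TPM, and NEUROD1 did not pass 0.0539 TPM. This sum was highest with the combination, and its part in the results on the feedback genes was not tested. Leukocyte markers summed to at most 1.51 TPM. In bulk RNA, fewer cells with a transcript and less transcript per cell cannot be told apart.

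On the length-scaled TPM, which allows levels of different genes to be compared, DUSP6 had the highest mean of the 10 genes in all 4 groups, at 69.3 ± 2.25 TPM in the combination, 83.8 ± 22.0 TPM with palbociclib, 76.7 ± 23.5 TPM with BLU9931 and 53.7 ± 25.0 TPM in control (SD, n = 3 each). SPRY4 and SPRED2 came next in each group. SPRY4 averaged 52.0 ± 2.34 TPM in the combination, 73.7 ± 13.7 TPM with palbociclib, 42.5 ± 1.48 TPM with BLU9931 and 40.7 ± 6.73 TPM in control (SD, n = 3 each). In control and BLU9931 libraries the TPM ranges of SPRY4 and SPRED2 overlapped, whereas in palbociclib and combination libraries every SPRY4 value lay above every SPRED2 value. SPRY2, SPRED1 and DUSP7 formed a middle tier with group means between 8.61 and 25.0 TPM. DUSP4 and SPRED3 were lower, with group means between 2.36 and 6.97 TPM, and changed places: SPRED3 lay above DUSP4 in every combination library, below it in every BLU9931 and control library, and overlapped it in palbociclib libraries. SPRY1 and DUSP5 were close to the limit of detection, with group means of at most 0.772 TPM and 0.308 TPM.

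**Figure D1:**
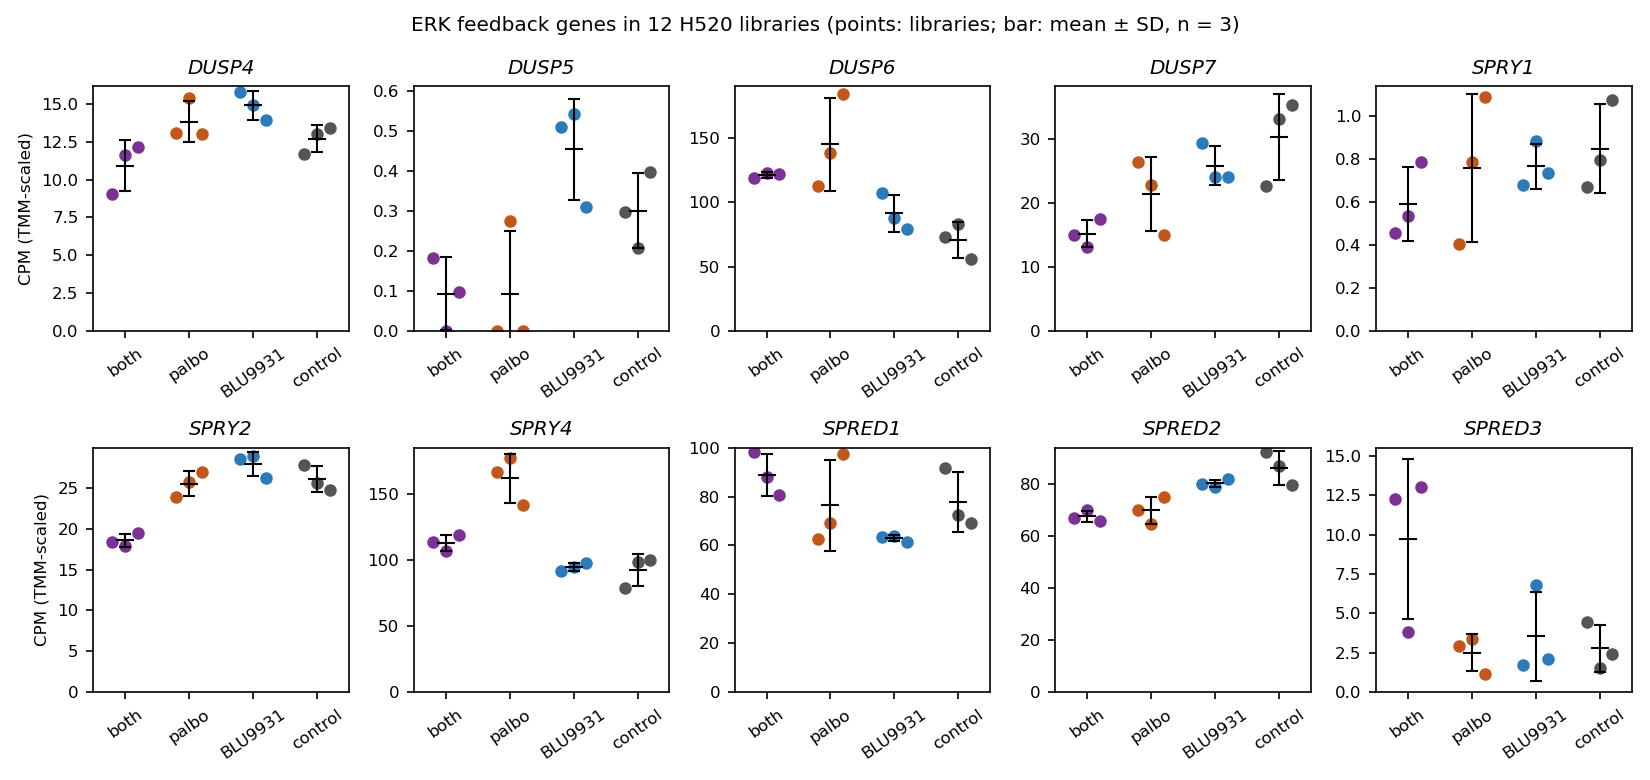
Normalised read count (CPM, the count relative to the TMM-corrected library total, linear axes from 0) of the 10 feedback genes in each library (points), with the mean and SD of 3 libraries (bars), for the combination (both), palbociclib (palbo), BLU9931 and control. DUSP6 and SPRY4 are higher in every palbociclib library than in every control library, and SPRY2 is lower in every combination library than in all other libraries.

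Palbociclib raised DUSP6 and SPRY4 and lowered SPRED2, and the combination raised DUSP6 and SPRED3 and lowered DUSP7, SPRY2 and SPRED2, while BLU9931 alone moved none of the 10 genes past the threshold. All tests are two-sided quasi-likelihood F-tests of edgeR on the counts of the 12 libraries, with the Benjamini-Hochberg adjusted p over all genes tested and a threshold of 0.05. In the combination against control, 5 of the 10 genes were called, where 31.7% of all genes tested were called. In palbociclib against control the count was 3 of 10, where 20.6% of all genes were called. In BLU9931 against control it was 0 of 10, where 0.18% of all genes were called. An unadjusted p under 0.05 was also found for 0 of 10 there, beside 16.2% of all genes. DESeq2 called 0 of 10 in that comparison, and 590 of all 20612 genes. The combination against palbociclib had 2 of 10, SPRY2 and SPRY4, both lower, where 3.82% of all genes were called. The combination against BLU9931 had 4 of 10, where 27.0% of all genes were called, with SPRED1 higher and DUSP4, DUSP7 and SPRY2 lower. The median log2 fold change of the 10 genes was -0.28 for the combination, -0.09 for palbociclib and 0.07 for BLU9931, each against control, beside 0.03, 0.01 and 0.00 for all genes tested. Groups of 3 libraries often did not overlap in CPM, for 6 of the 10 genes in the combination against control (48.4% of all genes), 3 in palbociclib against control (32.0%), 2 in BLU9931 against control (31.6%), 4 in the combination against palbociclib (21.6%) and 8 in the combination against BLU9931 (52.6%). These comparisons share libraries, so the counts are not independent of each other.

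**Figure D2:**
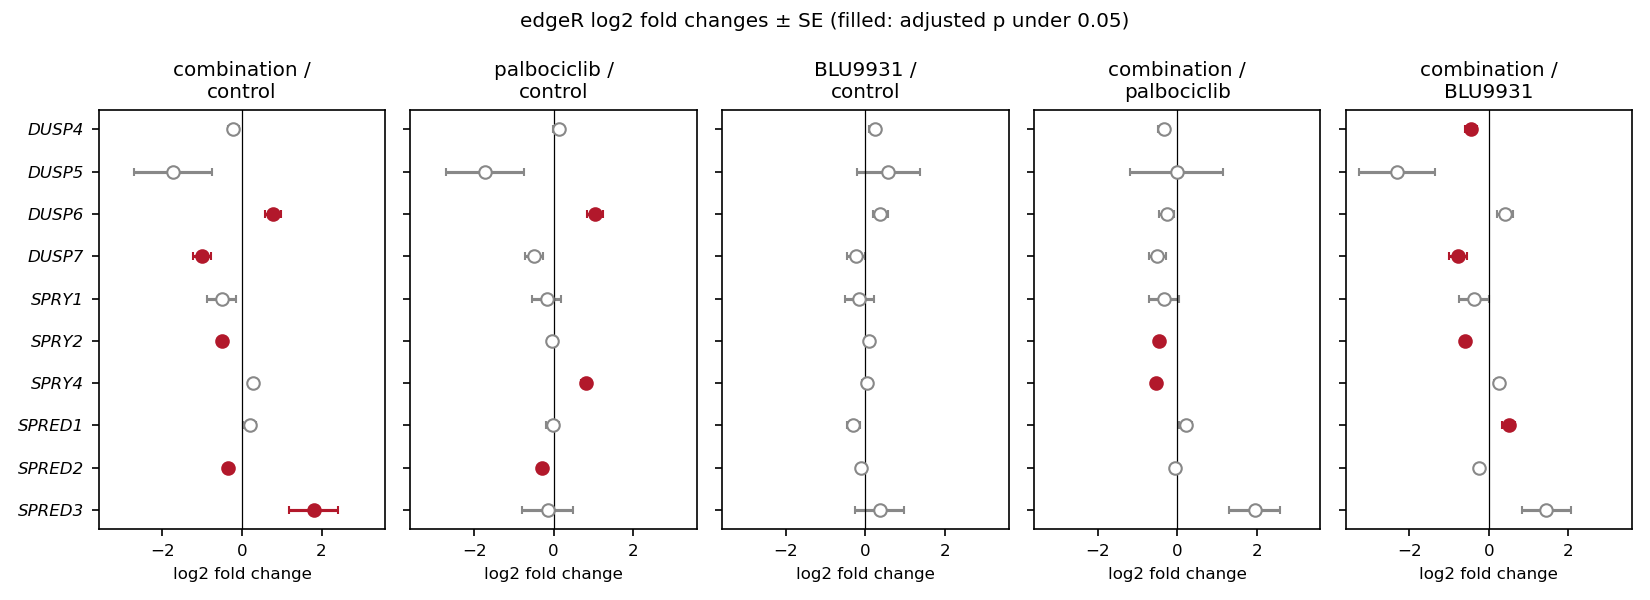
Log2 fold change (x axis) with its standard error (bars) of each of the 10 genes in 5 comparisons, from the edgeR fit, with filled points where the adjusted p was under 0.05. Filled points lie on both sides of 0 in the combination against control, and none is filled for BLU9931 against control.

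DUSP6 encodes a cytoplasmic phosphatase that is selective for ERK. Its level was 119, 123 and 122 CPM in the combination libraries, 113, 139 and 184 CPM in the palbociclib libraries, 107, 88.0 and 79.3 CPM in the BLU9931 libraries and 73.0, 83.3 and 55.6 CPM in the control libraries. Every palbociclib and every combination library lay above every control library, and BLU9931 and control overlapped. The log2 fold change was 1.04 ± 0.19 for palbociclib (SE, adjusted p = 0.00311) and 0.78 ± 0.19 for the combination (SE, adjusted p = 0.00915), each against control. For BLU9931 against control it was 0.37 ± 0.19 (SE, adjusted p = 0.348), with a 95% interval of -0.07 to 0.82. The combination differed from palbociclib by -0.26 ± 0.19 on the log2 scale (SE, adjusted p = 0.596), with a 95% interval of -0.70 to 0.18. The combination stood 0.41 ± 0.19 above BLU9931 (SE, adjusted p = 0.142), without overlap of their libraries. The calls against control held when any one of the 12 libraries was left out.

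The rise of DUSP6 depended on the unit. In the deposited TPM values DUSP6 stood at 66.8, 70.0 and 71.1 in the combination, 62.9, 81.7 and 107 with palbociclib, 97.8, 80.9 and 51.3 with BLU9931 and 41.0, 82.5 and 37.5 in control. Control replicate 2 then lay among the treated libraries, and the groups overlapped. With limma on log2(TPM + 1), the log2 difference was 0.69 ± 0.31 for palbociclib (SE, adjusted p = 0.144) and 0.45 ± 0.31 for the combination (SE, adjusted p = 0.29), each against control. In the same fit the combination stood at -0.10 ± 0.31 against BLU9931 (SE, adjusted p = 0.854), opposite in sign to the counts. The length that a count and its FPKM value imply for DUSP6 was between 3914 and 4155 bases in the combination and palbociclib libraries, but 2486, 2465 and 3553 bases in the BLU9931 libraries and 3948, 2241 and 3376 bases in the control libraries. Its log2 SD over the 12 libraries, 0.334, was above that of 96.9% of 12580 well-counted genes. An antisense gene, AC024909.2, covers 2257 bases of the DUSP6 locus (chr12:89347232-89353271, minus strand), and its own count was 3.72% to 11.5% of that of DUSP6. Whether the counting used strand is not given, so reads of these genes may not be separable.

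**Figure D3:**
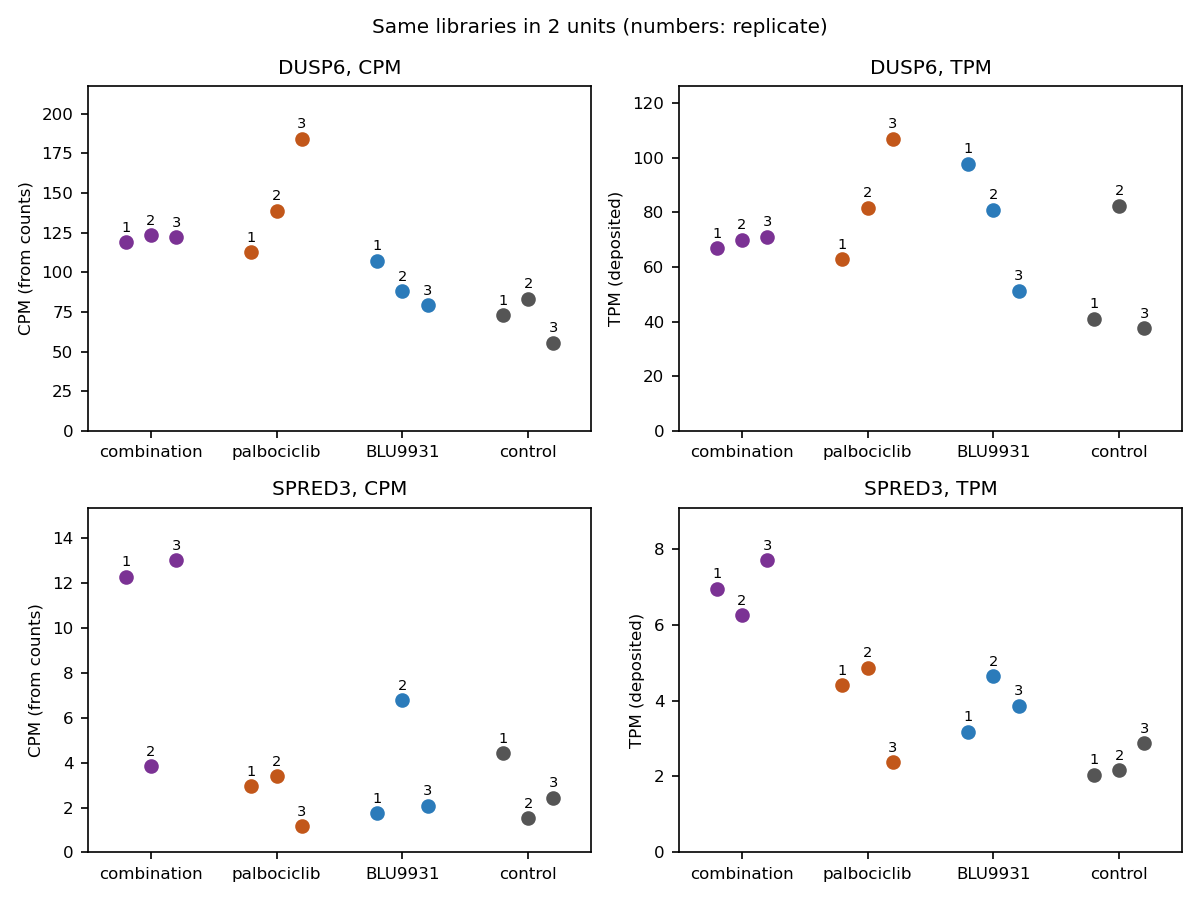
DUSP6 (top) and SPRED3 (bottom) in each library as CPM from the counts (left) and as the deposited TPM (right), on linear axes from 0, with replicate numbers beside the points. For DUSP6 the control libraries lie below palbociclib and combination libraries in CPM, but control replicate 2 reaches 82.5 TPM; for SPRED3 the combination libraries lie above all others in TPM, but combination replicate 2 falls to 3.84 CPM.

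DUSP7, a close relative of DUSP6 that also acts on ERK in the cytoplasm, was lower in the combination. It had 14.96, 13.1 and 17.4 CPM in the combination, 26.3, 22.7 and 14.95 CPM with palbociclib, 29.2, 23.9 and 24.0 CPM with BLU9931 and 22.5, 33.0 and 35.2 CPM in control. All combination libraries lay below all BLU9931 and control libraries, and palbociclib overlapped the combination through its replicate 3. The combination lowered DUSP7 by a log2 fold change of -0.996 ± 0.226 against control (SE, adjusted p = 0.00587), a fold of 0.501, and this held with any one library left out. Against BLU9931 it was lower by -0.76 ± 0.23 (SE, adjusted p = 0.0267), a call lost without any one of the 3 BLU9931 libraries, combination replicate 1 or combination replicate 2 (adjusted p 0.0515 to 0.103). Palbociclib against control gave -0.50 ± 0.22 (SE, adjusted p = 0.139). DUSP7 (chr3:52048919-52056550, minus strand) has the most GC-rich longest transcript of the 10, richer than that of 84.2% of genes, and its lowest control and lowest palbociclib values were in the libraries that stood apart by GC content. Without both of them, palbociclib lowered DUSP7 by -0.49 ± 0.15 (SE, adjusted p = 0.0319) against control, and the combination by -0.69 ± 0.14 (SE, adjusted p = 0.0104) against palbociclib. In the fit of all 12 libraries the combination stood at -0.49 ± 0.23 against palbociclib (SE, adjusted p = 0.323). With an offset for GC content in each library, DUSP7 was lower with BLU9931 than in control, by -0.50 ± 0.10 (SE, adjusted p = 0.0215). This difference did not pass the threshold without both GC-deviant libraries (-0.40 ± 0.14, SE, adjusted p = 0.139). Nor did it in the fit of all 12 libraries (-0.23 ± 0.22, SE, adjusted p = 0.597).

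The nuclear phosphatases were lower in expression. DUSP4, which acts on ERK and on the stress kinases, had 9.02, 11.6 and 12.2 CPM in the combination, 13.1, 15.4 and 13.0 CPM with palbociclib, 15.8, 14.97 and 13.95 CPM with BLU9931 and 11.7, 13.0 and 13.4 CPM in control. BLU9931 libraries were above all control and all combination libraries, but only the combination against BLU9931 passed the threshold, at a log2 fold change of -0.45 ± 0.14 (SE, adjusted p = 0.0397). That call was lost when any BLU9931 library, combination replicate 1 or combination replicate 2 was left out (adjusted p 0.0598 to 0.14). DUSP5, a phosphatase specific for ERK in the nucleus, gave counts of 4, 0 and 3 in the combination, 0, 7 and 0 with palbociclib, 12, 16 and 8 with BLU9931 and 8, 6 and 14 in control. A count of 0 allows up to 3 counts, or 0.10 to 0.121 CPM in the libraries concerned. DUSP5 passed the threshold in no comparison, with an adjusted p of 0.252 for palbociclib and 0.209 for the combination against control, and 0.0999 for the combination against BLU9931. Without palbociclib replicate 2, the library with 7 counts, the adjusted p was 0.0265 for palbociclib against control and 0.0442 for the combination against BLU9931.

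Of the Sprouty genes, SPRY4 rose with palbociclib and SPRY2 fell with the combination. SPRY4, an inhibitor of receptor tyrosine kinase signalling upstream of RAF, had 114, 107 and 119 CPM in the combination, 167, 177 and 142 CPM with palbociclib, 92.1, 94.97 and 97.6 CPM with BLU9931 and 79.0, 98.6 and 100.4 CPM in control. Palbociclib libraries were the highest 3 of the 12, combination libraries came next, and BLU9931 and control overlapped. Palbociclib raised SPRY4 by a log2 fold change of 0.81 ± 0.12 against control (SE, adjusted p = 0.000794), which held with any one library left out and in limma on log2(TPM + 1) (0.84 ± 0.15, SE, adjusted p = 0.0035). The combination was at 0.29 ± 0.12 against control (SE, adjusted p = 0.0862), and passed the threshold without palbociclib replicate 3 (adjusted p = 0.0449).

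The combination was lower than palbociclib alone for SPRY4, by -0.52 ± 0.12 (SE, adjusted p = 0.034). This call was kept without control replicate 1 or palbociclib replicate 3 and lost without any one of the other 10 libraries (adjusted p 0.0558 to 0.168) and in limma on log2(TPM + 1) (adjusted p = 0.145). Leaving out both GC-deviant libraries gave -0.61 ± 0.07 (SE, adjusted p = 0.000306), and the combination then passed the threshold above BLU9931 (0.23 ± 0.06, SE, adjusted p = 0.0109), where the fit of 12 libraries had 0.25 ± 0.12 (SE, adjusted p = 0.139). For BLU9931 against control the difference was 0.03 ± 0.12 (SE, adjusted p = 0.897), with a 95% interval of -0.24 to 0.31. SPRY4 (chr5:142310427-142326455, minus strand) overlaps the antisense gene SPRY4-AS1, whose count was at most 0.401% of that of SPRY4.

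SPRY2, which blocks GRB2 and SOS recruitment and RAF activation, was lower in the combination than in each other group. It had 18.4, 17.8 and 19.5 CPM in the combination, 23.9, 25.7 and 26.9 CPM with palbociclib, 28.6, 28.9 and 26.2 CPM with BLU9931 and 27.9, 25.6 and 24.8 CPM in control. All 3 combination libraries lay below the other 9. The log2 fold change of the combination was -0.49 ± 0.11 against control (SE, adjusted p = 0.00486), -0.46 ± 0.11 against palbociclib (SE, adjusted p = 0.0381) and -0.59 ± 0.11 against BLU9931 (SE, adjusted p = 0.00193). The calls against control and BLU9931 held with any one library left out. That against palbociclib was kept without control replicate 1 or BLU9931 replicate 3 and lost without any one of the other 10 (adjusted p 0.0516 to 0.146) and in limma on log2(TPM + 1) (adjusted p = 0.156). SPRY2 did not pass the threshold with palbociclib (-0.03 ± 0.11, SE, adjusted p = 0.875) or with BLU9931 (0.10 ± 0.11, SE, adjusted p = 0.645), each against control, with 95% intervals of -0.28 to 0.22 and -0.15 to 0.35. SPRY2 lies at chr13:80335976-80340951 on the minus strand, and the promoter windows printed above are upstream of 2 of its transcript starts.

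SPRY1, the remaining Sprouty gene of the set, gave counts of 10 to 38 per library. It had 0.453 to 0.785 CPM in the combination, 0.402 to 1.09 CPM with palbociclib, 0.679 to 0.883 CPM with BLU9931 and 0.67 to 1.08 CPM in control. All groups overlapped, and at this depth no difference was detectable in any comparison. The 95% interval of the combination against control, -1.36 to 0.34 on the log2 scale, includes a fall as large as that of DUSP7.

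Of the Spred genes, SPRED2 was lower in both palbociclib-treated groups. It had 66.9, 69.9 and 65.6 CPM in the combination, 69.95, 64.5 and 74.8 CPM with palbociclib, 79.97, 78.7 and 81.6 CPM with BLU9931 and 92.1, 86.7 and 79.4 CPM in control. Every library with palbociclib, alone or combined, lay below every library without it. The log2 fold change was -0.35 ± 0.10 for the combination (SE, adjusted p = 0.0171) and -0.30 ± 0.10 for palbociclib (SE, adjusted p = 0.0471), each against control. The first call held with any one library left out but was lost in limma on log2(TPM + 1) (-0.27 ± 0.10, SE, adjusted p = 0.0623). The second was lost in the same limma fit (-0.21 ± 0.10, SE, adjusted p = 0.179) and when libraries were scaled by their totals (-0.23 ± 0.09, SE, adjusted p = 0.0876). It was kept without control replicate 3, BLU9931 replicate 2, palbociclib replicate 3 or combination replicate 2 and lost without any one of the other 8 libraries (adjusted p 0.05 to 0.121). The combination and palbociclib differed by -0.05 ± 0.10 (SE, adjusted p = 0.885), with a 95% interval of -0.27 to 0.18. Against BLU9931 the combination stood at -0.25 ± 0.10 (SE, adjusted p = 0.0827), and this passed the threshold without control replicate 1 or palbociclib replicate 3 (adjusted p 0.044 to 0.0451) and without both (adjusted p = 0.00552).

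SPRED1, whose loss in the germline causes Legius syndrome, had 98.0, 87.9 and 80.8 CPM in the combination, 62.6, 69.1 and 97.5 CPM with palbociclib, 63.3, 64.0 and 61.6 CPM with BLU9931 and 91.8, 72.4 and 69.1 CPM in control. The highest control and the highest palbociclib value were in the libraries that stood apart by GC content, and SPRED1 has the most AT-rich longest transcript of the 10. The combination exceeded BLU9931 by 0.50 ± 0.17 on the log2 scale (SE, adjusted p = 0.0469), a call kept without control replicate 1, palbociclib replicate 1 or palbociclib replicate 3 and lost without any one of the other 9 libraries (adjusted p 0.0543 to 0.152). Without both GC-deviant libraries, SPRED1 was higher in the combination than in control, by 0.31 ± 0.09 (SE, adjusted p = 0.0177), and than with palbociclib, by 0.43 ± 0.09 (SE, adjusted p = 0.0128). In the fit of all 12 libraries the same differences were 0.19 ± 0.17 (SE, adjusted p = 0.413) and 0.22 ± 0.17 (SE, adjusted p = 0.611).

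SPRED3, the Spred gene with the lowest expression here, had 12.3, 3.84 and 13.0 CPM in the combination, 2.95, 3.38 and 1.17 CPM with palbociclib, 1.74, 6.79 and 2.09 CPM with BLU9931 and 4.43, 1.52 and 2.44 CPM in control. Combination replicates 1 and 3 were the highest of all libraries, while replicate 2 fell within the range of control. The combination raised SPRED3 by a log2 fold change of 1.80 ± 0.63 against control (SE, adjusted p = 0.047). This was kept without control replicate 1, BLU9931 replicate 2, palbociclib replicate 3 or combination replicate 2, and lost without any one of the other 8 libraries (adjusted p 0.0501 to 0.15). Against BLU9931 it was 1.44 ± 0.62 (SE, adjusted p = 0.108), and it passed the threshold without BLU9931 replicate 2 (adjusted p = 0.0295). Against palbociclib it was 1.95 ± 0.63 (SE, adjusted p = 0.138), without overlap in CPM, and it passed the threshold in DESeq2 (adjusted p = 0.0207).

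For SPRED3 the deposited TPM values separated the groups more clearly, at 6.95, 6.25 and 7.70 in the combination, 4.40, 4.87 and 2.38 with palbociclib, 3.18, 4.64 and 3.86 with BLU9931 and 2.05, 2.17 and 2.87 in control. All combination libraries were above all others, and BLU9931 was above control throughout. In limma on log2(TPM + 1) the combination differed from control by 1.25 ± 0.21 (SE, adjusted p = 0.00111) and from BLU9931 by 0.71 ± 0.21 (SE, adjusted p = 0.0285). Other comparisons did not pass the threshold in that fit. The combination stood at 0.74 ± 0.21 against palbociclib (SE, adjusted p = 0.0969). BLU9931 and palbociclib stood at 0.54 ± 0.21 and 0.51 ± 0.21 against control (SE, adjusted p = 0.29 and 0.122). The length implied by count and FPKM differed 4.31-fold between libraries for SPRED3, between 1115 and 4808 bases, a log2 SD above that of 99.8% of genes. It was longest in control replicate 1, BLU9931 replicate 2 and combination replicates 1 and 3, which are the libraries with the highest SPRED3 counts of their groups. SPRED3 (chr19:38388421-38399587, plus strand) passed the threshold in the combination against control in both units, but the call in counts was lost without control replicate 1 and palbociclib replicate 3 (2.27 ± 0.77, SE, adjusted p = 0.0545) and with GC offsets (1.46 ± 0.65, SE, adjusted p = 0.0932). The part of the implied length in its CPM values was not tested.

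Whether the log2 effects of the 2 drugs on RNA level add was tested with the interaction. The interaction is how far the combination lies, in log2 fold change against control, from the added log2 fold changes of BLU9931 and palbociclib alone. It passed the threshold for 0 of the 10 genes, where 1.59% of all genes were called. An unadjusted p under 0.05 was found for 5 of the 10, beside 14.2% of all genes. DESeq2 called 1 of the 10, SPRY2, and 853 of all 20612 genes. For SPRY4 the single drugs summed to a log2 effect of 0.84, against 0.29 observed, an interaction of -0.55 ± 0.17 (SE, adjusted p = 0.153). For SPRY2 the sum was 0.07 against -0.49 observed, an interaction of -0.56 ± 0.15 (SE, adjusted p = 0.111). DUSP6 had a sum of 1.42 against 0.78 observed, an interaction of -0.63 ± 0.27 (SE, adjusted p = 0.318), and DUSP4 had -0.57 ± 0.20 (SE, adjusted p = 0.23). SPRED1 was on the other side, at 0.52 ± 0.24 (SE, adjusted p = 0.348). So was SPRED3 in counts, at 1.59 ± 0.88 (SE, adjusted p = 0.454). In limma on log2(TPM + 1) the interaction of SPRED3 was 0.20 ± 0.30 (SE, adjusted p = 0.825). Without control replicate 1 and palbociclib replicate 3, the interaction passed the threshold for SPRY4 (-0.54 ± 0.10, SE, adjusted p = 0.00794), SPRED1 (0.60 ± 0.12, SE, adjusted p = 0.0162) and SPRY2 (-0.57 ± 0.13, SE, adjusted p = 0.0207). Leaving out palbociclib replicate 3 alone gave calls for SPRY4 (adjusted p = 0.0372) and SPRED1 (adjusted p = 0.0428). Over all genes, interaction calls were 328 of 20612 in the fit of 12 libraries. They were 2117 of 21092 without both libraries and 986 of 21242 without palbociclib replicate 3 alone. For SPRED2 and DUSP7 the interaction was 0.06 ± 0.14 and -0.26 ± 0.32 (SE, adjusted p = 0.894 and 0.767).

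**Figure D4:**
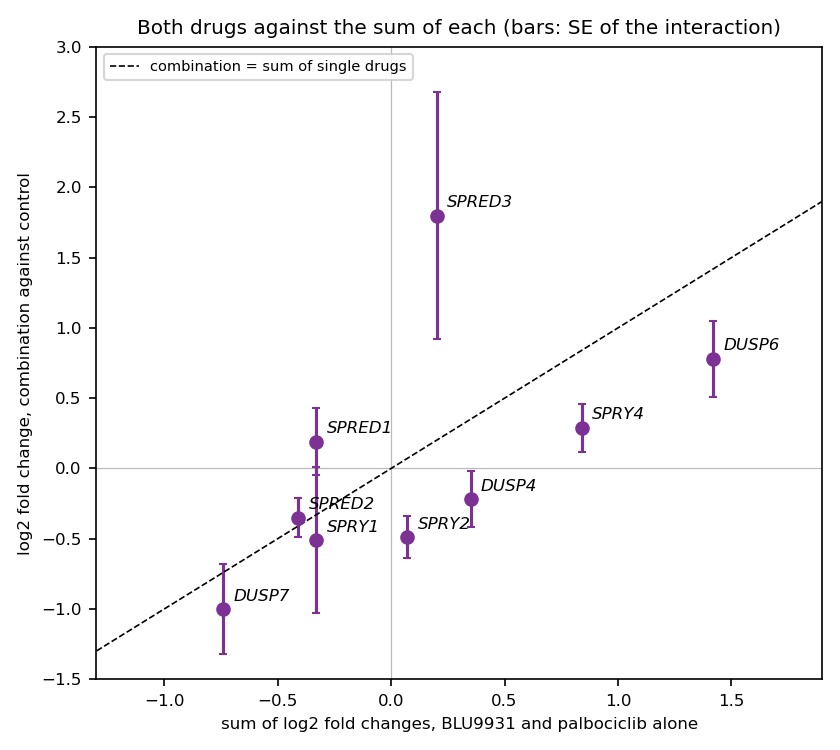
Log2 fold change of the combination against control (y axis) over the sum of the log2 fold changes of BLU9931 and palbociclib alone (x axis) for 9 of the genes (DUSP5, with counts of 0 in 3 libraries, is left out), with the standard error of the interaction as bars and the line of equality dashed. SPRY2, SPRY4, DUSP4, DUSP6, DUSP7 and SPRY1 lie below the line and SPRED1, SPRED3 and SPRED2 above it. No interaction passed the threshold in the fit of 12 libraries.

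Other genes of the pathway were read from 4 lists chosen for their roles. Of 7 other MAP kinase phosphatase and Sprouty genes, the combination raised 3 (SPRY3, DUSP16 and DUSP10) and lowered 1 (DUSP9). Palbociclib raised 2 (SPRY3 and DUSP10) and lowered 1 (DUSP9), and BLU9931 moved 0, each treatment being set against control. Of all genes, 31.7%, 20.6% and 0.18% were called in these comparisons, in the same order. DUSP10, a phosphatase of the p38 and JNK kinases, averaged 20.4 ± 0.90 CPM in the combination, 12.9 ± 1.28 CPM with palbociclib, 8.72 ± 0.88 CPM with BLU9931 and 5.31 ± 0.17 CPM in control (SD, n = 3 each). It was also higher in the combination than with palbociclib, by 0.66 ± 0.13 on the log2 scale (SE, adjusted p = 0.013), unlike SPRY4 and SPRY2, which were lower there. SPRY3 averaged 8.85 ± 1.35 CPM in the combination, 9.19 ± 1.09 CPM with palbociclib, 3.82 ± 0.27 CPM with BLU9931 and 3.52 ± 0.87 CPM in control (SD, n = 3 each). The median log2 fold change of the 7 was 0.58 for the combination and 0.23 for palbociclib, beside 0.03 and 0.01 for all genes.

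Genes of the cascade itself did not pass the threshold with the combination or with BLU9931. Of 23 genes from the FGF receptors to ERK, the combination moved 0 and BLU9931 moved 0, each against control. Beside these counts, 31.7% and 0.18% of all genes were called, in that order. FGFR4, the target of BLU9931, averaged 21.8 ± 1.03 CPM in the combination, 21.3 ± 9.95 CPM with palbociclib, 53.0 ± 1.07 CPM with BLU9931 and 40.7 ± 13.5 CPM in control (SD, n = 3 each). It was lower in the combination than with BLU9931 (-1.28 ± 0.34, SE, adjusted p = 0.0152), and the combination against control had an adjusted p of 0.0607. NF1, the partner of the Spred proteins, averaged 269 ± 53.8 CPM in the combination, 217 ± 24.2 CPM with palbociclib, 257 ± 32.1 CPM with BLU9931 and 277 ± 77.1 CPM in control (SD, n = 3 each), and passed the threshold in none of the 6 comparisons.

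Among 15 tested transcription factors and outputs downstream of ERK, the combination raised 2 (ELK1 and CCND1) and lowered 3 (ETV1, ETV4 and IER3). Palbociclib raised 3 (EPHA2, PHLDA1 and CCND1) and BLU9931 moved 0, each treatment being set against control. Beside these counts, 31.7%, 20.6% and 0.18% of all genes were called, in the same order. CCND1, which encodes cyclin D1, averaged 504 ± 34.0 CPM in the combination, 470 ± 17.4 CPM with palbociclib, 247 ± 9.08 CPM with BLU9931 and 278 ± 3.39 CPM in control (SD, n = 3 each). The early response gene IER3 averaged 1.84 ± 0.26 CPM in the combination, 2.58 ± 0.33 CPM with palbociclib, 4.02 ± 0.665 CPM with BLU9931 and 3.72 ± 0.43 CPM in control (SD, n = 3 each). Its adjusted p was 0.0688 for palbociclib against control and 0.237 for the combination against palbociclib. PHLDA1 averaged 172 ± 92.8 CPM in the combination, 328 ± 85.7 CPM with palbociclib, 307 ± 36.3 CPM with BLU9931 and 84.5 ± 16.8 CPM in control (SD, n = 3 each), and had an interaction of -2.79 ± 0.53 (SE, adjusted p = 0.026).

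Of 14 other negative regulators and partners, the combination raised 3 (CAV1, CBLB and PEBP1) and lowered 3 (RASAL2, RASA2 and CBL). Palbociclib raised 3 (CAV1, IL17RD and CBLB) and lowered 1 (CBL), and BLU9931 moved 0, each treatment being set against control. The shares of all genes called were 31.7%, 20.6% and 0.18%, in the same order. IL17RD encodes SEF, a feedback inhibitor of FGF signalling. It averaged 52.7 ± 2.31 CPM in the combination, 99.2 ± 13.8 CPM with palbociclib, 43.9 ± 2.38 CPM with BLU9931 and 49.1 ± 1.70 CPM in control (SD, n = 3 each). Palbociclib raised it by a log2 fold change of 1.01 ± 0.11 against control (SE, adjusted p = 0.000142), the combination was lower than palbociclib by -0.91 ± 0.11 (SE, adjusted p = 0.000847), and the interaction was -0.75 ± 0.16 (SE, adjusted p = 0.0429). The signs are those of SPRY4 in the same comparisons, with the interaction past the threshold for IL17RD and not for SPRY4. Whether the 2 genes differ was not tested.

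For the 6 members called in either comparison with control for palbociclib or the combination, the protein-coding genes nearest in pattern were found by the root mean square difference of centred log2(CPM + 0.5) over the 12 libraries, among 10882 genes. SPRED2 had the closest, TMEM41A at 0.0542 and SETD5 at 0.0548, where the median gene was at 0.324. SPRY2 was nearest to NHS at 0.0799 and SLC25A37 at 0.0815, with a median of 0.371. DUSP7 was nearest to GPRIN1 at 0.143 and KHK at 0.155, and SPRY4 to IL23A at 0.147 and LTB4R2 at 0.149, with medians of 0.511 and 0.459. DUSP6 was nearest to UGT1A6 at 0.182 and KAT7 at 0.185, with a median of 0.545. SPRED3 had no close neighbour, with UBE2Q2 at 0.616 and FAM43B at 0.646 and a median of 0.978. A gene of small spread has near neighbours by this measure alone, so the values are a description of likeness over these libraries.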

How the data were processed

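RNA of H520 cells was measured in 12 libraries, 3 per group, and the deposited table holds a count, a TPM and an FPKM value per gene and library. Count columns hold whole numbers, per the file headers, with no word on the counting tool. The TPM values (summing to 999907 to 999944 per library) and the FPKM values are the authors' own, per the file headers. Per the submitters' processing notes, Trimmomatic 0.36, HISAT2 2.0, bedtools 2.26.0 and StringTie 1.3.3b were used, and the genome named there is a mouse build, although the 58174 gene IDs are human and 57836 of them are in GENCODE 29. Positions are therefore given on GRCh38. The annotation release, counting mode and use of strand are not given in the sources used here. Columns belonging to other samples numbered 0.

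The count model was edgeR 4.0.16 in R 4.3.3 (filterByExpr, TMM, glmQLFit with robust estimation, 1 term per group, 8 residual degrees of freedom, common dispersion 0.0518) over 20612 genes and 6 comparisons, with Benjamini-Hochberg adjustment. The fit was tested on simulated counts. The standard error is the log2 fold change over the square root of F. Alternatives used DESeq2 1.42.0, limma 3.58.1 on log2(TPM + 1), log2(TPM + 0.1) and log2(FPKM + 1), other scalings and filters, a replicate block, offsets for the GC content of GENCODE 29 transcripts, and libraries left out. Replicates differed by a chi-square of 17.6 to 86.1 per degree of freedom, so no libraries were duplicates within sampling noise. Counting floors cover counting error only. The 95% intervals use 8 degrees of freedom. Python 3.11.15 served for summaries (pandas 2.3.3) and figures (matplotlib 3.10.9).

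The members, the pathway lists and the tests were chosen with earlier results of these data known. All 10 members are named in the report, with the 2 genes of smallest adjusted p per pathway list in the combination and in palbociclib against control, FGFR4, NF1 and the 2 nearest genes in pattern per called member. DUSP16, DUSP9, EPHA2, ELK1, ETV1, ETV4, PEBP1, RASAL2, RASA2 and CBL are named outside this rule, since they make up counts of 5 or fewer, and were chosen after their values were seen. A result for the FGF receptor to ERK list under palbociclib is not reported here.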

Additional observations from a re-analysis of the deposited data

How the results depend on the processing

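Over 25 alternatives, 1478 values were recomputed for the 10 genes. Of these 1275 kept direction and side of the threshold, 54 changed sign with neither value past the threshold, 101 lost a call, 48 gained one and 0 reversed a call. Only a gene called in the reported fit can lose a call, so the 101 are not a share of all 1478. Calls were kept in as few as 9 of 25 alternatives (SPRY2 and SPRY4, combination against palbociclib). At most they were kept in 25 of 25, as for SPRY4 in palbociclib against control. Out of 10 genes, the count called in the combination against control was 3 in each limma fit (log2(TPM + 1), log2(TPM + 0.1) and log2(FPKM + 1)), against 5. There, GC offsets gave 6 and leaving out control 1 and palbociclib 3 gave 5, each without SPRED3 and with SPRED1. In palbociclib against control it was 1 in each limma fit, against 3. In BLU9931 against control it was 1 (DUSP7) with GC offsets and 1 with GC offsets and replicate block, against 0. In the combination against palbociclib (2 in the reported fit) it was 0 without the filter on low counts and 0 with the replicate block. It was also 0 in each limma fit and 0 with only the libraries of the compared groups. With 1 library left out it was 0 to 2, and DESeq2 gave 3, with SPRED3 added. It was 4 with GC offsets, with GC offsets and block, or without control 1 and palbociclib 3. In the combination against BLU9931 (4 in the reported fit) it was 2 without the filter, 1 (SPRY2) with the replicate block, 7 with only the libraries of the compared groups and 1 to 5 with 1 library left out. For the interaction (0 in the reported fit) it was 1 in DESeq2, 0 to 2 with 1 library left out, and 3 with GC offsets, with GC offsets and block, or without control 1 and palbociclib 3. Calls among all genes moved in several of these settings. For the interaction they were 328 of 20612 in the reported fit, 1719 with GC offsets and 142 with the replicate block. Without control 1 and palbociclib 3 they were 2117 of 21092. In the combination against palbociclib they were 788, 2287 with GC offsets and 483 with the block. In the combination against BLU9931 they were 5572, and 8038 of 19249 with only the compared groups. In BLU9931 against control they were 37, and 745 with GC offsets. The cause of these shifts was not tested. No pairing by replicate number was seen. Of 18 same-numbered pairs, 3 had deviations correlated above 0.1 (range -0.364 to 0.168), and 2 of 12 libraries correlated best with their own number. The highest correlation, 0.464, was between control 1 and palbociclib 3, which stood apart by GC content. Their deviations enter this check, so it cannot decide whether the libraries were paired. With the replicate block the counts were 4 for the combination, 2 for palbociclib and 0 for BLU9931, each against control. Scaling by library totals moved the median log2 fold change of all genes to 0.11 for the combination against control and left its 5 called members called. Depth limits DUSP5 and SPRY1, with at most 38 counts per library.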
